A study of Mus musculus with 3 samples.

Results

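The expression of 10 genes for metallothioneins and for zinc or copper handling was examined in MC3T3-E1 cells, a preosteoblast line that was established from the calvaria of mice. The genes were chosen by name, with earlier results of these data known. All 10 were among the 15287 genes of the deposited table and above 1 FPKM in at least 1 library. FPKM values correct the fragments of a gene for transcript length and library size, so that levels of different genes can be compared per length. The CTL library was from wild-type cells without special treatment, the Ti library from wild-type cells exposed during 24 h to titanium particles (10 μg per square cm), and the Ti+Se-Met library from wild-type cells exposed for as long to these particles together with 5 μM selenomethionine. Where 3 values are given in a row, they stand for CTL, Ti and Ti+Se-Met in this order. Each condition had a single library, so differences could not be checked in replicates and no test was made. An interval given with a fold or a level is a 95% counting interval from estimated fragments, and it compares libraries, not conditions.

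Metallothioneins are small proteins whose many cysteines bind zinc and copper ions. MTF1 is a transcription factor that senses free zinc and activates the metallothionein genes and Slc30a1 through short promoter sequences called metal response elements. The SLC30 transporters move zinc out of the cytosol and the SLC39 transporters move it in, while copper enters through SLC31A1 and is handed by the chaperones ATOX1 and CCS to the pump ATP7A and to superoxide dismutase. In bone-forming cells, zinc is a cofactor of alkaline phosphatase, and copper pumped by ATP7A is needed by lysyl oxidases that crosslink collagen.

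The coding sequences of the metallothioneins and of Atox1 are shown first, because they make clear how a metal-binding protein is written and how well reads of Mt1 and Mt2 can be told apart. They were taken from GENCODE M21 on GRCm38, 5′ to 3′, with the cysteine codons TGC and TGT in capitals. Mt2 lies at chr8:94172664-94173568 and Mt1 at chr8:94179082-94180327, both on the plus strand, 5513 bases apart and each with 3 exons. Atox1 lies on the minus strand at chr11:55446641-55461239, and its transcript has 4 exons, 3 of them coding.
Mt1: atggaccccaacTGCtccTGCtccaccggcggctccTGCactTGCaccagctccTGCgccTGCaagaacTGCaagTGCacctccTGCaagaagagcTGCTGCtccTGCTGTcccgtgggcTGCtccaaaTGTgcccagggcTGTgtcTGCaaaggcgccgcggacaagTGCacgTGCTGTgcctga
Mt2: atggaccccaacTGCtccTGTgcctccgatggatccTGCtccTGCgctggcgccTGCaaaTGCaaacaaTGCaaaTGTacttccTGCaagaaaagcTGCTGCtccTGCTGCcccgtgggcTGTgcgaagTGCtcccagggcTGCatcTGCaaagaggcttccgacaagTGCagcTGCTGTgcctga
Atox1: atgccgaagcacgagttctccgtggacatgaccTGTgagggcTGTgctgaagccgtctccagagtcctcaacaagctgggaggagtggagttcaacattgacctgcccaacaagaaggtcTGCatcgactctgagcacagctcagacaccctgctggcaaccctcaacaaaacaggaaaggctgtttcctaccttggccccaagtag

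Mt1 and Mt2 each had 20 cysteine codons among 61 (32.8%), and all 20 stood at the same places in both genes. Atox1 had 3 among 68 codons, of which a pair separated by 2 other codons forms the copper site of this chaperone. The coding sequences of Mt1 and Mt2 were identical at 148 of 186 bases (79.6%). Their longest shared run was 20 bases, also over the whole transcripts, so a read of greater length could be assigned to one of them. Pseudogenes were not examined.

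Windows at the RefSeq starts of both metallothioneins and of Slc30a1 are shown because MTF1 acts on these genes. The metal response element core was searched as TGCACNC and TGCGCNC on both strands, in windows from 250 bases before to 50 bases after the gene start of RefSeq on GRCm38.p6. The 250 bases before the start are printed 5′ to 3′ on the gene's strand, with matches in capitals. They lie at chr8:94178839-94179088 for Mt1, chr8:94172368-94172617 for Mt2 and chr1:191906531-191906780 for Slc30a1, all on the plus strand.
Mt1: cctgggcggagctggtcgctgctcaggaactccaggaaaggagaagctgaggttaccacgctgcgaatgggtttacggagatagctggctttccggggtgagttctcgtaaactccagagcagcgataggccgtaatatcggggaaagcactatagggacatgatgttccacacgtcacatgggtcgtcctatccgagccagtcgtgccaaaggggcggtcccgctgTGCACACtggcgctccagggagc
Mt2: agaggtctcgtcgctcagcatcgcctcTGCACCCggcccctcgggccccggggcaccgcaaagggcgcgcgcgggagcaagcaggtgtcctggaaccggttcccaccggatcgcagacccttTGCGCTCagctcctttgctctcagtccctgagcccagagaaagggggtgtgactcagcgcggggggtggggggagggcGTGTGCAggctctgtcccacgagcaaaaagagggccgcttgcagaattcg
Slc30a1: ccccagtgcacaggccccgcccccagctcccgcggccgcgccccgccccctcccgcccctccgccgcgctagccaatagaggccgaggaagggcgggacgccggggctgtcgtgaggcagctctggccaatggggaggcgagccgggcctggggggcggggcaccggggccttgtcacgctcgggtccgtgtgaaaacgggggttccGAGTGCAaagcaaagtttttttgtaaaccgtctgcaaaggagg

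The Mt2 window held 4 matches, 3 of them before the start. The Mt1 window held 3, of which 1 lay before the RefSeq start and the others at bases 3 to 9 and 21 to 27 after it. The Slc30a1 window held 2, of which 1 lay before the start. Start sites were not measured in these cells, and a different start would place these matches differently. Sequence outside the windows was not searched. Among all 32851 promoter windows of the same length, 25.7% held at least 1 match, 7.11% at least 2, 1.97% at least 3 and 0.517% at least 4. The Atp7a window held 2 matches, and those of Mtf1, Slc31a1, Slc39a10 and Atox1 held 0. Slc39a10 had 2 windows, with RefSeq starts at chr1:46925776 and chr1:46853618, and the RefSeq start of Mtf1 was chr4:124802549. These starts are not those of the GENCODE M21 spans given below. No match overlapped another. The antioxidant response element core TGACNNNGC, which NRF2 binds, had 1 match each in Mt2, Slc30a1 and Atox1 and was in 12.4% of all windows. A match is a stretch of letters and not a measured binding site. Windows are given for 8 of the 10 genes. The chromosome of Slc39a6 was left out of the windows and positions given here, and no window was matched for Ccs. On GRCm38, Slc30a1 lies at chr1:191906767-191913247, Mtf1 at chr4:124802104-124849800, Slc31a1 at chr4:62360727-62391769 and Atp7a at chrX:106027276-106124926, all on the plus strand, and Slc39a10 at chr1:46807544-46892852 and Ccs at chr19:4825366-4839332 on the minus strand.

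Mt2 was the most abundant of the 10 transcripts in each library, followed by Mt1, whose counting interval overlapped that of Atox1 in CTL and Ti. Both metallothioneins were highest in the Ti+Se-Met library. Mt1 was at 117, 179 and 207 FPKM, on an estimated 661, 1051 and 867 fragments. Mt2 was at 189, 226 and 272 FPKM, on 970, 1199 and 1030 fragments. The order of the libraries was therefore the same for both genes, with no overlap of counting intervals between the libraries. Since the libraries are from bulk RNA, fewer cells of a type and less RNA per cell cannot be told apart in any of these levels.

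For Mt1 the fold was 1.54 for Ti over CTL (interval 1.39 to 1.70), 1.15 for Ti+Se-Met over Ti (1.05 to 1.26) and 1.77 for Ti+Se-Met over CTL (1.60 to 1.97). For Mt2 the folds were 1.19 (1.10 to 1.30), 1.20 (1.11 to 1.31) and 1.44 (1.31 to 1.57). As deposited, most of the higher level of Mt1 was thus present in the Ti library, whereas the steps of Mt2 were of like size. Against CTL, the difference of Mt1 in log2(FPKM + 1) was 0.62 in Ti, above that of 86.0% of all genes, and 0.82 in Ti+Se-Met, above that of 95.2%. Mt2 was more moderate, at 0.25 in Ti (above 63.2% of genes) and 0.52 in Ti+Se-Met (above 86.9%).

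The FPKM values summed to 448285 (CTL), 526017 (Ti) and 514568 (Ti+Se-Met). Rescaling the libraries to the same sum, as TPM are, moved the median difference of all genes for Ti over CTL from 0.08 to -0.13 on the log2(FPKM + 1) scale, and for Ti+Se-Met over CTL from 0.01 to -0.17. With that scaling the fold of Mt2 for Ti over CTL was 1.02 (interval 0.934 to 1.11), and with scaling by the upper quartile 1.09 (0.997 to 1.18), so that equal levels were within both intervals, while that of Mt1 was 1.31 with the same sum (1.19 to 1.44). For Ti+Se-Met over Ti, the intervals of both genes lay above 1 as deposited and under each of the 3 other scalings tried, with folds from 1.15 to 1.21 for Mt1 and from 1.20 to 1.26 for Mt2. The steps of Mt2 were therefore of like size only as deposited. From CTL to Ti and from Ti to Ti+Se-Met they were 1.02 and 1.23 with the same sum, and 1.09 and 1.26 with the upper quartile.

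The summed FPKM of Mt1 and Mt2 was 306, 405 and 479. Within the libraries, Mt2 exceeded Mt1 1.62-fold (interval 1.47 to 1.79), 1.26-fold (1.16 to 1.37) and 1.31-fold (1.20 to 1.44). The ratio of the pair within a library does not depend on the scaling, and the intervals of the Ti-treated libraries lay below that of CTL. The other metallothionein genes of the list, Mt3 and Mt4, were not among the genes of the table and were not analysed here.

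**Figure D1:**
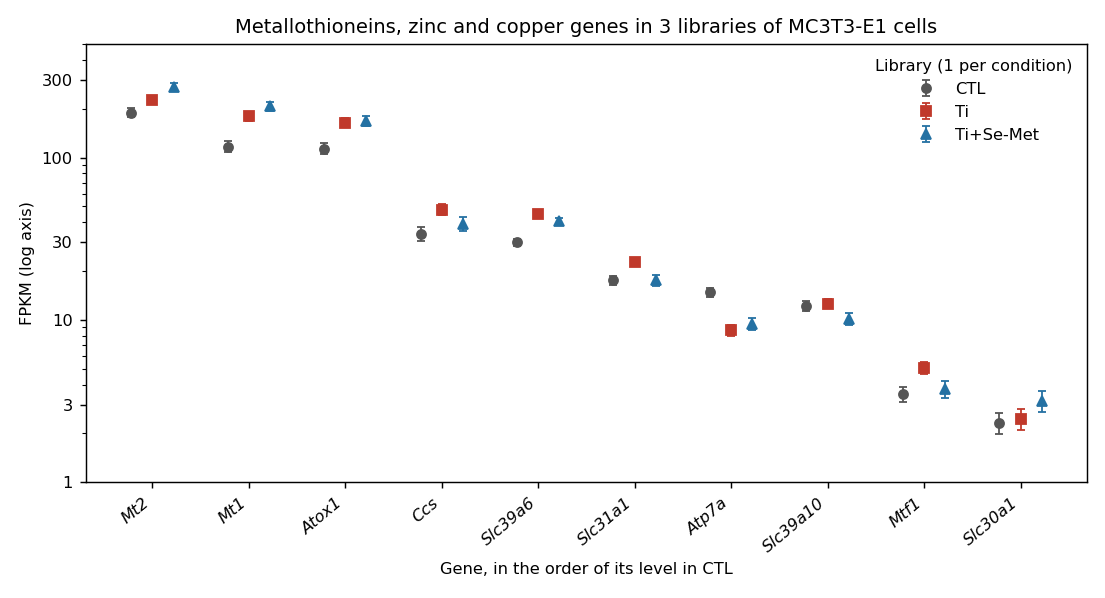
FPKM of each of the 10 genes on a log axis in the CTL, Ti and Ti+Se-Met libraries, 1 of each, with bars for the 95% counting interval of the level. Mt2, Mt1 and Atox1 stood above 100 FPKM in each library, Mtf1 and Slc30a1 below 6, and Atp7a was highest in CTL.

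Mtf1, the metal-sensing activator itself, was at 3.49, 5.05 and 3.74 FPKM. It was thus highest in Ti, and unlike its metallothionein targets it was back near the CTL level with Se-Met. The fold was 1.45 for Ti over CTL (interval 1.26 to 1.65) and 0.741 for Ti+Se-Met over Ti (0.642 to 0.856), and that of Ti+Se-Met against CTL, 1.07 (0.916 to 1.25), included equal levels. Mtf1 shares 316 exonic bases with 1110065P20Rik on the opposite strand, which was at 24.8 to 28.0 FPKM, and the counting is not stated to use strand, so part of its low level may belong to that gene.

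Slc30a1, the exporter of zinc through the plasma membrane, had the lowest level of the 10 genes in every library, at 2.31, 2.46 and 3.16 FPKM. The fold for Ti over CTL was 1.06 (interval 0.858 to 1.32), so no difference was detectable at such a depth. The Ti+Se-Met level was 1.28-fold that of Ti (1.04 to 1.59) and 1.37-fold that of CTL (1.10 to 1.71). With the libraries rescaled to the same sum, the last interval became 0.957 to 1.49 and included equal levels. Both Mt2 and Slc30a1 overlap an antisense gene in their exons, Gm45774 and 1700034H15Rik, neither of which is among the genes of the table.

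The zinc importers Slc39a6 and Slc39a10, close relatives whose proteins can form a joint transporter, differed from each other. Slc39a6 was at 30.2, 44.9 and 40.5 FPKM, with a fold of 1.49 for Ti over CTL (interval 1.40 to 1.59) and of 0.902 for Ti+Se-Met over Ti (0.846 to 0.961). The latter interval included equal levels with scaling by the median of ratios (0.886 to 1.01) and by the upper quartile (0.888 to 1.01). Slc39a10 was at 12.2, 12.6 and 10.1 FPKM, so that CTL and Ti were not distinguishable by counting error (fold 1.03, interval 0.942 to 1.13) and Ti+Se-Met was the lowest (fold 0.806 against Ti, 0.725 to 0.894). Rescaled to the same sum, Slc39a10 was lower in Ti than in CTL, with a fold of 0.879 (0.803 to 0.963). The ratio of Slc39a6 to Slc39a10 within a library was 2.47 (2.28 to 2.68), 3.57 (3.32 to 3.85) and 3.997 (3.63 to 4.41), with the Ti-treated libraries above CTL.

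Among the copper genes of the 10, the pump Atp7a was lower under Ti than under CTL. The importer Slc31a1 and the chaperones Atox1 and Ccs were higher. Atp7a, which pumps copper into the Golgi and out of the cell, was the gene of the 10 with the lowest ratio, at 14.8, 8.64 and 9.45 FPKM. Its fold was 0.583 for Ti over CTL (interval 0.526 to 0.646) and 0.638 for Ti+Se-Met over CTL (0.571 to 0.714). Its difference in log2(FPKM + 1) was -0.71 and -0.60, and 7.89% and 11.3% of all genes had a lower one. The fold for Ti+Se-Met over Ti was 1.09 (0.968 to 1.24), an interval that included equal levels, though scaling by the median of ratios placed it just above them (1.01 to 1.30). Rescaled to the same sum, its fold for Ti over CTL was 0.497 (0.449 to 0.551).

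Slc31a1, the plasma membrane importer of copper, was at 17.6, 22.8 and 17.6 FPKM. It was higher in the Ti library alone, with a fold of 1.30 against CTL (interval 1.19 to 1.42) and a fold of 0.772 for Ti+Se-Met over Ti (0.700 to 0.849). For Ti+Se-Met over CTL the fold was 1.00 (0.904 to 1.11), and rescaled to the same sum it was 0.872 (0.787 to 0.966). The ratio of importer to pump within a library was 1.19 (1.08 to 1.30), 2.63 (2.39 to 2.91) and 1.86 (1.65 to 2.09), and these intervals did not overlap.

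Atox1, the chaperone that carries copper to ATP7A, was at 113, 164 and 168 FPKM. The fold was 1.45 for Ti over CTL (interval 1.31 to 1.61) and 1.02 for Ti+Se-Met over Ti (0.925 to 1.13), so the Ti-treated libraries could not be told apart by counting error. The ratio of Atox1 to Atp7a within a library was 7.64 (6.90 to 8.45), 19.0 (17.1 to 21.1) and 17.8 (15.8 to 20.0). The chaperone therefore stood higher over its pump in both Ti-treated libraries.

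Ccs, which loads copper onto superoxide dismutase, was at 33.8, 47.8 and 39.1 FPKM. The fold was 1.42 for Ti over CTL (interval 1.25 to 1.60), 0.819 for Ti+Se-Met over Ti (0.720 to 0.932) and 1.16 for Ti+Se-Met over CTL (1.01 to 1.33), the last of which included equal levels when rescaled to the same sum or by the upper quartile. Its client Sod1 was at 216, 290 and 315 FPKM, and the ratio of Sod1 to Ccs within a library was 6.39 (5.74 to 7.12), 6.08 (5.56 to 6.65) and 8.06 (7.19 to 9.03). Client and chaperone were thus in about the same ratio in CTL and Ti, and the ratio was higher in Ti+Se-Met.

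**Figure D2:**
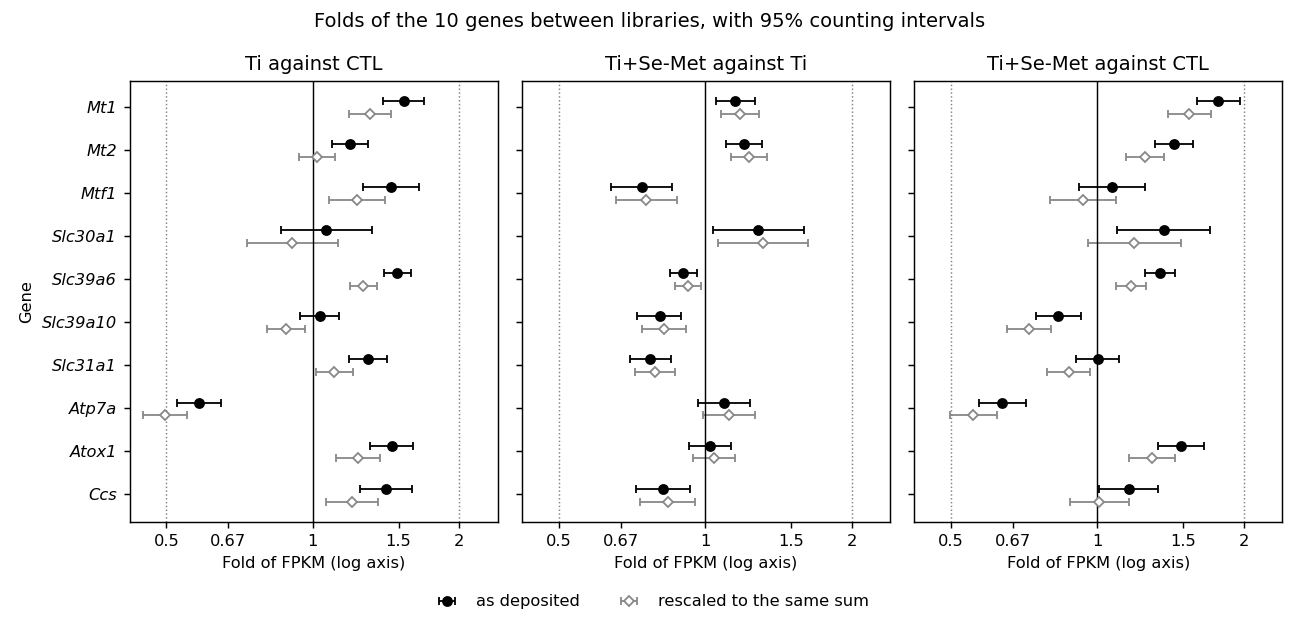
Fold of FPKM between libraries for each of the 10 genes on a log axis, as deposited (filled circles) and with the libraries rescaled to the same sum (open diamonds), with 95% counting intervals and dotted lines at 0.5 and 2. Atp7a lies to the left of 1 in both comparisons with CTL, and Mt1 and Mt2 lie to the right of 1 for Ti+Se-Met over Ti under both scalings.

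No gene of the 10 reached a 2-fold difference in log2(FPKM + 1) in any comparison. Over the 11137 genes with at least 1 FPKM in at least 1 library, 7.26% did so for Ti over CTL, 0.224% for Ti+Se-Met over Ti and 5.96% for Ti+Se-Met over CTL. At 1.5-fold, Mt1 was higher and Atp7a lower for Ti over CTL, beside 15.5% of all genes higher and 11.3% lower, and the same held for Ti+Se-Met over CTL, beside 10.4% and 11.7%. The difference of Mt1 for Ti over CTL did not reach 1.5-fold under the other scalings, at 0.39 (same sum), 0.57 (median of ratios) and 0.48 (upper quartile). That of Atp7a for Ti over CTL did not reach it with a pseudocount of 5, at -0.54, and for Ti+Se-Met over CTL neither with that pseudocount, at -0.46, nor with the median of ratios, at -0.58. Between Ti+Se-Met and Ti, 0 of the 10 reached 1.5-fold, beside 2.12% of all genes. The number of genes past either limit was therefore not above that of the table as a whole.

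In direction, 9 of the 10 genes were higher in Ti than in CTL, all but Atp7a, beside 55.3% of all genes. The median difference of the 10 was 0.39 in log2(FPKM + 1), against 0.08 over all genes. Rescaled to the same sum, 7 were higher, beside 40.3% of all genes, and the median was 0.19 against -0.13, since Slc30a1 and Slc39a10 were then lower in Ti. The counting interval lay above equal levels for 7 of the 10 and below for 1, beside 42.8% and 32.0% of the 10918 genes with a known length. With the same sum, it lay above for 6 and below for 2, beside 27.9% and 46.7%. With Se-Met, 5 were higher than in Ti, beside 38.5% of all genes, and the median was -0.06, as it was over all genes. The counting interval lay above equal levels for 3 of them (Mt1, Mt2 and Slc30a1) and below for 5 (Mtf1, Slc39a6, Slc39a10, Slc31a1 and Ccs), beside 15.8% and 29.2% of genes. This became 4 above and 4 below, with Atp7a above and Slc39a6 among neither, beside 22.6% and 20.0% of genes with the median of ratios and 22.9% and 19.7% with the upper quartile. Of the 10, 8 were higher in Ti+Se-Met than in CTL, beside 51.0% of all genes, or 6 rescaled to the same sum, beside 35.7%. The interval lay above equal levels for 6 and below for 2 (Slc39a10 and Atp7a), beside 36.0% and 33.4% of genes, or for 4 and 3 with the same sum, beside 21.9% and 47.6%. Each library enters 2 of the 3 comparisons, so their values are not independent.

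**Figure D3:**
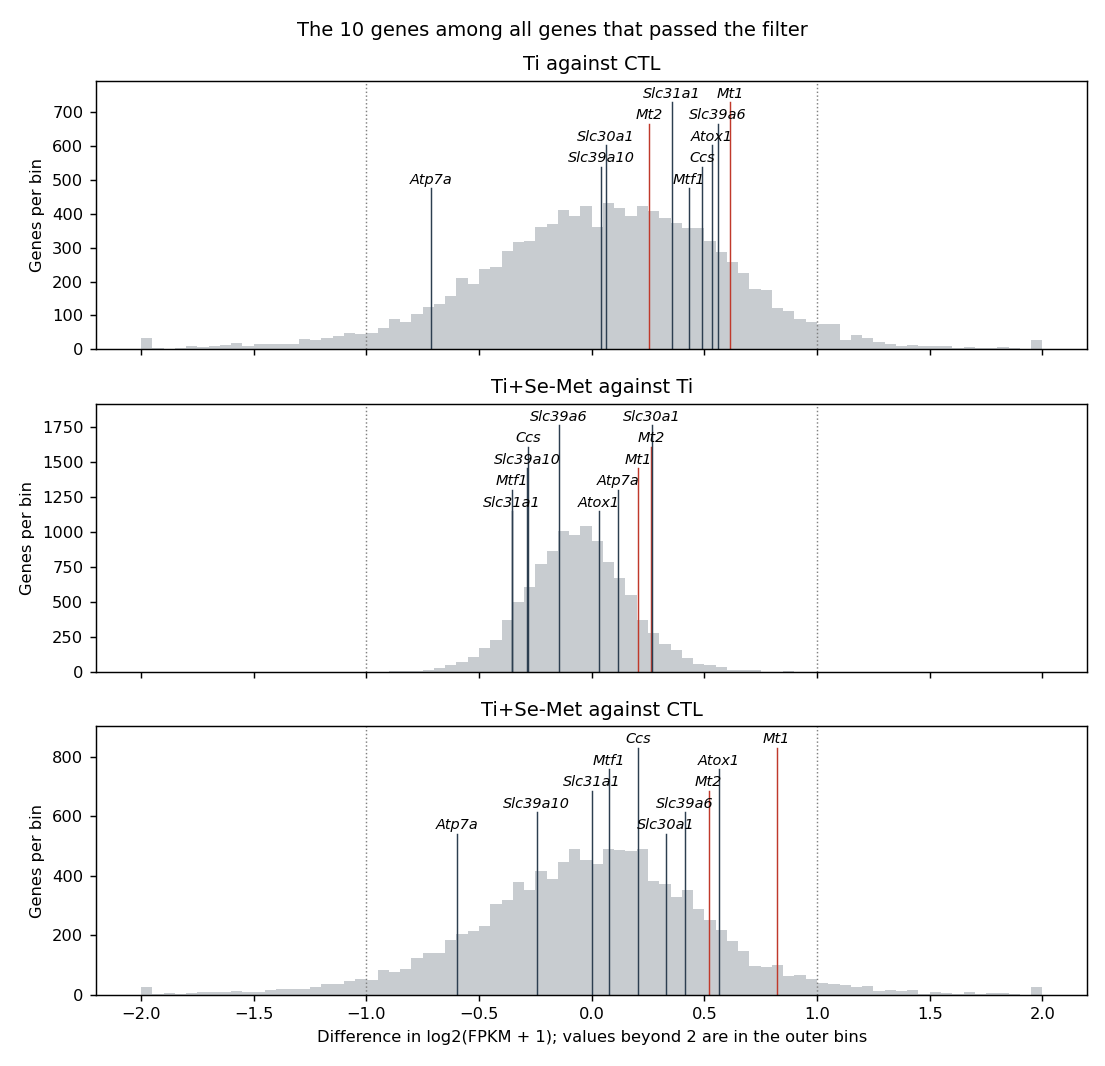
Number of genes per bin of 0.05 in the difference of log2(FPKM + 1), over 11137 genes, with lines at the values of the 10 genes (Mt1 and Mt2 in red) and dotted lines at a 2-fold difference. Atp7a lies in the left flank of both comparisons with CTL, Mt1 in the right flank, and no line passes the 2-fold marks.

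By level, the order within CTL was Mt2, Mt1, Atox1, Ccs, Slc39a6, Slc31a1, Atp7a, Slc39a10, Mtf1 and Slc30a1. Mt1 and Atox1 were neighbours whose counting intervals overlapped, as were Ccs and Slc39a6, and the other neighbours were apart. The order in Ti differed in 1 exchange, with Slc39a10 above Atp7a, and the same pairs overlapped. In Ti+Se-Met, Slc39a6 stood above Ccs as well, and the overlapping neighbours were Slc39a6 and Ccs, Slc39a10 and Atp7a, and Mtf1 and Slc30a1. Mt2 had at least the level of 97.9% of all listed genes in CTL, and Slc30a1 that of 33.9%.

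The other genes of zinc and copper handling were taken from lists of metallothioneins, SLC30 exporters, SLC39 importers and copper-handling genes. These lists were chosen for function, but with earlier results of these data known. Of 44 genes on the lists, 36 were listed and 31 passed the filter, 9 of them among the 10 genes above, since Mtf1 is on none of these lists. For Ti over CTL, 3 of the 31 were at least 2-fold higher, beside 3.63% of all genes, and 0 were lower, beside 3.64%. Those 3 were Slc39a14, an importer of zinc and iron, Sco2, which delivers copper to cytochrome c oxidase, and Steap3, a reductase of iron and copper. For Ti over CTL, 23 of the 31 were higher, beside 55.3% of all genes, or 18 rescaled to the same sum, beside 40.3%, and the median was 0.25, beside 0.08 over all genes. For Ti+Se-Met over Ti, 8 of the 31 were higher, beside 38.5% of all genes, and the median was -0.12, beside -0.06 over all genes. With the median of ratios 12 of the 31 were higher, beside 49.6%. Without the 10 genes, 22 were left. Of these 22, 15 were higher for Ti over CTL, or 12 rescaled to the same sum. For Ti+Se-Met over Ti, 3 of the 22 were higher, or 7 with the median of ratios.

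Slc39a14 was at 12.3, 25.7 and 22.5 FPKM, and its difference in log2(FPKM + 1) of 1.01 for Ti over CTL became 0.79 with the libraries rescaled to the same sum. Sco2 was at 13.1, 43.4 and 30.8 FPKM, with a difference of 1.65, and Steap3 at 0.53, 2.37 and 1.87 FPKM, with a difference of 1.14. The exons of Sco2 overlap those of Ncaph2 on the opposite strand, which was at 32.9, 56.2 and 58.5 FPKM, and those of Tymp on the same strand, so its values are uncertain. These genes are named for their difference between Ti and CTL, which is a description. The fold interval for Ti+Se-Met over Ti was 0.776 to 0.983 for Slc39a14, 0.620 to 0.814 for Sco2 and 0.587 to 1.06 for Steap3, so that Ti and Ti+Se-Met could not be told apart by counting error for Steap3.

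Of the 9 zinc importers above the filter, 7 were higher for Ti over CTL, or 6 rescaled to the same sum, with a median of 0.35. Of the 6 exporters 3 were higher, or 1 rescaled to the same sum, with a median of -0.0032. Of all genes, 55.3% were higher, or 40.3% with the same sum. The abundant importers were Slc39a7, which releases zinc from the endoplasmic reticulum, at 131, 187 and 173 FPKM, and Slc39a1, at 109, 149 and 137 FPKM. The reads of Slc39a7 could be shared with the overlapping Gm20427. Among the exporters, Slc30a9 was at 31.5, 26.5 and 24.3 FPKM, Slc30a4 at 31.0, 29.4 and 27.9, and Slc30a7 at 16.8, 21.5 and 20.5. The exons of Slc30a7 overlap those of Gm43106 and Gm6649 on the opposite strand.

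Set against Ti, all 9 importers above the filter were lower in Ti+Se-Met, with differences from -0.29 to -0.01, beside 61.1% of all genes lower. With each of the other 3 scalings 1 importer was higher and 8 were lower. Of all genes, 43.9% were then higher with the same sum, 49.6% with the median of ratios and 50.1% with the upper quartile. Of the 6 exporters, 4 were lower and 2 higher as deposited, the latter including Slc30a1. The exporters Slc30a3, Slc30a8 and Slc30a10 and the importers Slc39a4 and Slc39a5 were not among the genes of the table, and Slc30a2, Slc39a2, Slc39a8 and Slc39a12 were below 1 FPKM in every library.

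Of 14 copper-handling genes above the filter, 11 were higher in Ti than in CTL, or 9 rescaled to the same sum, beside 55.3% and 40.3% of all genes, with a median of 0.33. Atp7a had the lowest value of this list, and the liver-type pump Atp7b was below 1 FPKM throughout. The others lower in Ti were Cox19, at 61.7, 53.8 and 48.5 FPKM, and Slc31a2, at 14.7, 12.9 and 10.8. The fold interval for Ti over CTL was 0.818 to 0.929 for Cox19. That of Slc31a2, 0.730 to 1.05, included equal levels. Cox17, a copper chaperone of mitochondria, was at 61.9, 88.3 and 97.6 FPKM, and Slc25a3, the mitochondrial carrier of phosphate and copper, at 467, 583 and 585 FPKM. Cox17 has 257 exonic bases in common with Gm21987 on the same strand, so its reads could be shared. For Ti+Se-Met over Ti, 10 of the 14 were lower, beside 61.1% of all genes, and Atp7a, Atox1, Cox17 and Slc25a3 were higher. With scaling by the median of ratios, 6 were higher, beside 49.6% of all genes.

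**Figure D4:**
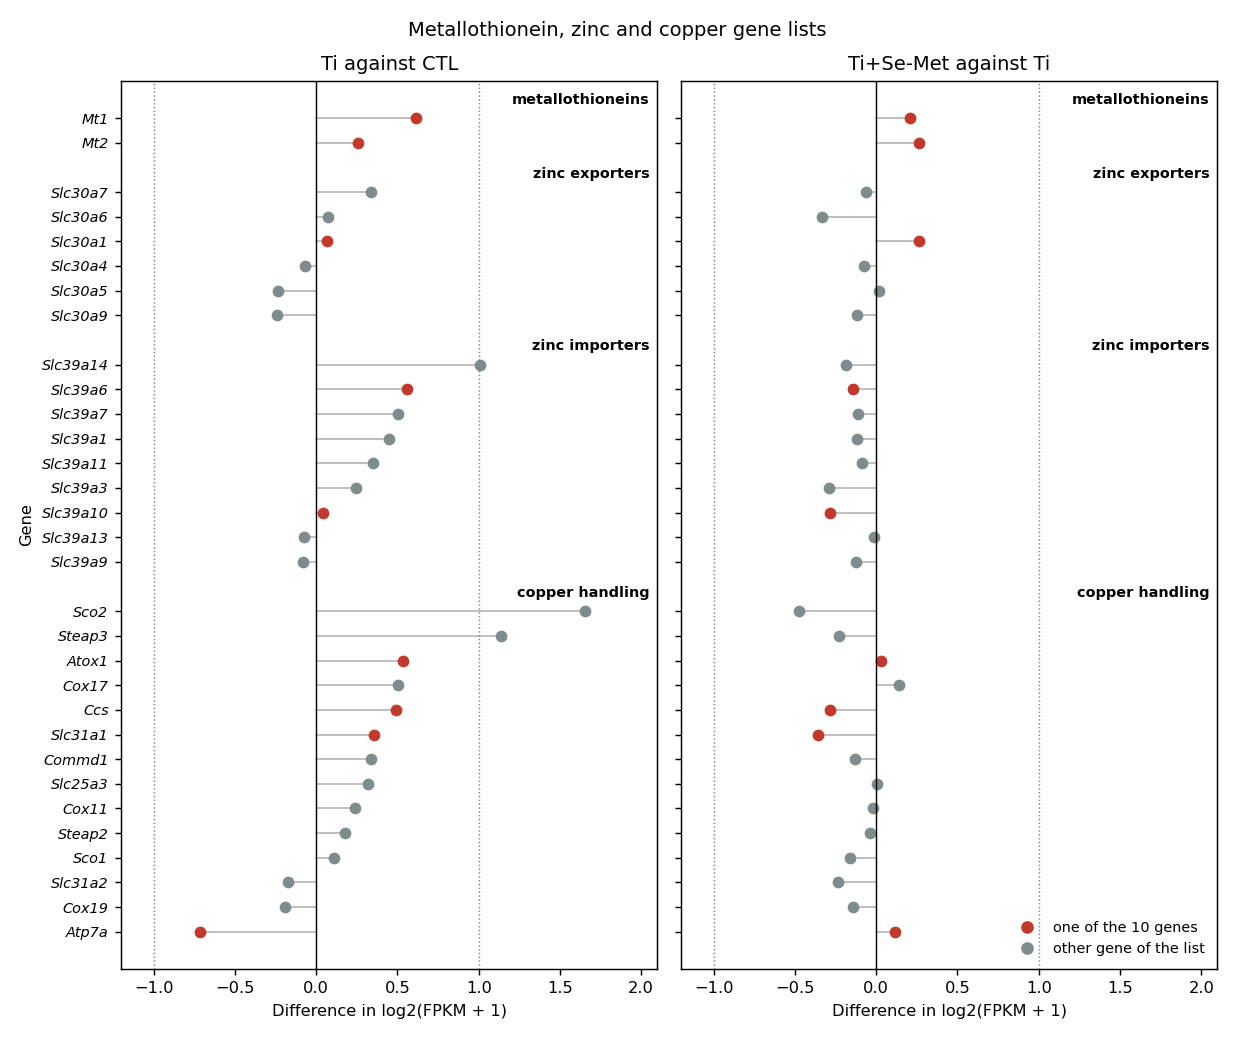
Difference in log2(FPKM + 1) for the 31 listed genes above the filter, by list, for Ti over CTL (left) and Ti+Se-Met over Ti (right), with the 10 genes in red where they are on a list and dotted lines at a 2-fold difference. Sco2, Steap3 and Slc39a14 pass the right line on the left, and all 9 zinc importers lie left of 0 on the right.

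In the annotation that came with the table, the terms most particular to metals were shared within the group, which follows from how the genes were chosen. The KEGG pathway mineral absorption held Mt1, Mt2, Slc30a1, Slc31a1 and Atox1 among its 31 listed genes, and the process of cellular zinc ion homeostasis held Mt1, Mt2, Slc30a1, Slc39a6 and Slc39a10 among 17. Of the 18 mineral absorption genes above the filter, 16 were higher in Ti than in CTL (13 rescaled to the same sum), beside 55.3% of all genes (40.3%), with a median of 0.37, beside 0.08. The 18 include Mt1, Mt2, Slc30a1, Slc31a1 and Atox1, each higher as deposited, as well as iron genes such as Ftl1, so this is no separate count.

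Genes of a similar pattern were sought among 8728 other genes with a mean of at least 5 FPKM, by the distance in the differences of log2(FPKM + 1) between Ti and CTL and between Ti+Se-Met and Ti. The nearest to Mt1 were Melk, Schip1 and Rnf19b, with distances of 0.02 to 0.03, and 41 genes lay within 0.1. Nearest to Mt2 were Smc2, Elk3 and Aebp1 (72 genes within 0.1), and nearest to Slc39a10 were Cmtm6, Sall2 and Cbr4 (182 genes within 0.1). With 3 libraries, many genes share a pattern.

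As a check of the cells, 6 of 8 osteoblast markers were above 1 FPKM in at least 1 library, among them Runx2 and, at 1333, 354 and 482 FPKM, Col1a1, while Alpl was above 1 FPKM in CTL only (1.51, 0.20 and 0.20), Sp7 was below 1 FPKM and Ibsp was listed at 0 in CTL and Ti+Se-Met. Spp1, another marker, was at 1261, 3706 and 4659 FPKM, opposite in direction to Col1a1, and the 8 markers summed to 5961, 5538.5 and 6929 FPKM. Macrophage markers summed to 5.78, 17.0 and 15.3 FPKM, of which Cd14 made up nearly all, and Ptprc and Adgre1 were not among the genes of the table. Endothelial and adipocyte markers summed to less than 1 FPKM. Of 4 chondrocyte markers, 1 was above 1 FPKM (Sox9), and the list summed to 25.5, 36.6 and 40.1 FPKM. The part of these shifts in the results was not tested.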

How the data were processed

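MC3T3-E1 RNA was sequenced in 3 libraries. The authors deposited FPKM per gene after trimming of adapters and low-quality reads, alignment by HISAT2 and counting by HTSeq, and state no scaling between libraries. The submitters' processing notes also name StringTie, SAMtools and the build mm9. How FPKM was made is not given in the sources used here. Positions and sequences are from RefSeq and GENCODE M21 on GRCm38.

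Python 3.11.15 (with scipy 1.17.1, pandas 2.3.3 and numpy 2.4.6) gave the differences in log2(FPKM + 1). A gene passed the filter when any library had it at 1 FPKM or more. No count model was applied to FPKM. The size of each library was estimated from low values, which step by 1 fragment, among 453 single-transcript genes (350 to 1000 bases, less 150) at 14200000 (CTL), 14700000 (Ti) and 10500000 fragments (Ti+Se-Met). With 100 or 200 bases subtracted, the estimates were 12900000 and 15350000, 13700000 and 15850000, and 9850000 and 11300000. On a step lay 53.8%, 40.2% and 37.6% of the values used, against 11.9%, 12.1% and 9.69% by chance. Lengths were matched by RefSeq accession for 95.3% of genes. Folds have exact conditional binomial intervals and levels exact Poisson intervals, for counting error only. Libraries simulated from the CTL levels with counting error alone were used as a check. In them, 100% of 200 genes changed 4-fold were recovered, 1 of 10664 unchanged genes was called, and 95.1% of their intervals held equal levels. The last share follows from the method, because the simulated counts and library sizes were known. Smaller differences and variation between libraries were not simulated.

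The genes and lists were chosen with earlier results of these data known. Named are the 10 genes, list members that differed by 1.5-fold or were among the 3 highest of their list, for 3 further lists the 3 largest differences for Ti over CTL, and the 3 nearest patterns of Mt1, Mt2 and Slc39a10. Other genes named for their absence, overlap, interval, direction or role as client were chosen after their values were seen. Results were recomputed with pseudocounts of 0.1 and 5, without a filter or with a mean FPKM of at least 5, with limits of 1.5-fold and 4-fold, and under 3 scalings (same sum, median of ratios, upper quartile).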

Additional observations from a re-analysis of the deposited data

How the results depend on the processing

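No paired analysis was possible because there was a single library of each condition, and none could be left out. On the log2(FPKM + 1) scale, the number of the 10 genes past 2-fold, 0 in each comparison, became 2 (Mt1 and Atp7a) at 1.5-fold for Ti over CTL and for Ti+Se-Met over CTL, as a lower limit allows by construction, and was 0 under all other alternatives. As a plain ratio of FPKM rescaled to the same sum, Atp7a was past 2-fold for Ti over CTL (0.497). Of the 31 zinc and copper genes, 3 were past 2-fold for Ti over CTL. At 4-fold this became 0, at 1.5-fold 5, and with 5 as the pseudocount 1, and each other scaling gave 2, without Slc39a14. In all, 150 differences of the 10 genes were recomputed with other pseudocounts and scalings. Of these, 131 moved by less than the distance from the middle of their counting interval to its end, in log2. The sign changed for 7, each in a gene whose interval had included equal levels. These were Slc30a1 and Slc39a10 for Ti over CTL and Slc31a1 for Ti+Se-Met over CTL, each rescaled to the same sum and to the upper quartile, and Mtf1 for Ti+Se-Met over CTL rescaled to the same sum. Ti+Se-Met had the fewest fragments, and Slc30a1 rested on the fewest fragments (167, 184 and 169).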

Other observations

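Enzymes that carry copper were taken as a further list. For Ti+Se-Met over Ti, all 9 of those above the filter were higher, as deposited and under the other 3 scalings, with a median difference of 0.16 in log2(FPKM + 1) as deposited. Of all genes, 38.5% were higher as deposited, 43.9% with the same sum, 49.6% with the median of ratios and 50.1% with the upper quartile. The deposited intervals of Loxl1 (0.906 to 1.11) and Sod3 (0.980 to 1.10) included equal levels, and those of the others did not. For Ti over CTL, 5 of the 9 were higher and 4 lower, beside 55.3% of all genes higher. Rescaled to the same sum, 4 were higher, beside 40.3%. Aoc3, an amine oxidase of the cell surface, was at 8.21 (CTL), 0.73 (Ti) and 1.79 FPKM (Ti+Se-Met). Loxl4, a lysyl oxidase relative, was at 14.9, 9.92 and 12.6 FPKM, and Cp, the copper-carrying ferroxidase ceruloplasmin, at 15.3, 22.0 and 29.0 FPKM. Cp has 108 exonic bases in common with Hps3 on the opposite strand.

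Metallothionein genes are also induced by glucocorticoids and by oxidative stress in many cells, so lists of genes that respond to either were set beside them. Of 10 NRF2 targets, 8 were higher in Ti than in CTL, beside 55.3% of all genes, with a median of 0.73, beside 0.08. Against Ti, 8 were lower in Ti+Se-Met, beside 61.1% of all genes, with a median of -0.14, beside -0.06. Under each other scaling 3 were higher and 7 lower, beside 43.9% (same sum), 49.6% (median of ratios) and 50.1% (upper quartile) of all genes higher. Hmox1, heme oxygenase 1, was at 54.8, 204 and 96.5 FPKM, Txnrd1, a thioredoxin reductase, at 65.2, 166 and 135, and Srxn1, sulfiredoxin, at 45.1, 91.2 and 83.2. Mt1 and Mt2 were higher in Ti+Se-Met than in Ti. These 3 targets were lower, but they were picked for their difference for Ti over CTL. That choice favours a lower value against the same Ti library. As deposited, 2 of the 10 targets were higher in Ti+Se-Met than in Ti, Osgin1 (0.25) and Me1 (0.03). Of 9 glucocorticoid-induced genes above the filter, 6 were higher in Ti than in CTL and 3 lower, beside 55.3% of all genes higher, with a median of 0.24. Rescaled to the same sum, 5 were higher, beside 40.3%. Sgk1, a serum- and glucocorticoid-induced kinase, was at 16.6, 117 and 117 FPKM and Cebpd at 15.3, 37.6 and 30.9, while Tsc22d3, known as Gilz, was at 63.2, 19.1 and 16.6. Cebpd has 562 exonic bases in common with Spidr on the opposite strand, which was at 10.6, 10.1 and 11.1 FPKM. The part of either response in the levels of the metallothioneins was not tested.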
